A study of Rattus norvegicus with 30 samples.

Results

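The 6 genes of lipid transport described here were followed in rat hippocampus after kainate: the apolipoproteins Apoe, Clu, Apod and Apoc1, the lipase Lpl and the fatty acid carrier Fabp7. They were chosen by name, with earlier results of these data known. The shares of all probe sets given beside counts of members are therefore a description and not a test. Every probe set annotated to exactly 1 of these symbols was kept, whatever its values. The rule gave 9 of the 8740 probe sets that are not array controls, with 3 for Lpl, 2 for Apoe and 1 for each of the other genes. All 9 passed the filter on low signals, which 6303 probe sets of 3702 genes passed. The study holds 30 Affymetrix arrays of total hippocampal RNA in 10 groups of 3. At each of 5 times, 1, 6, 24, 72 and 240 h after treatment, 1 group of rats had received kainate and the other phosphate-buffered saline (PBS). Kainate is a glutamate receptor agonist used to cause seizures, and seizures are named in the title of the series. No genetic change is named in the labels, and the strain, age and sex of the rats and the dose and route of kainate are not given in the sources used here. Nor do the labels say whether the 3 arrays of a group came from separate rats, so the p-values measure the spread between arrays, which may be technical.

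Lipids move between brain cells on lipoprotein particles whose protein coats are apolipoproteins. Astrocytes are the main source of apolipoprotein E in brain, lipoprotein receptors on neurons and glia take the particles up, and lipases free fatty acids from them. Inside the cell, fatty acid binding proteins carry fatty acids in the cytosol, and Fabp7 is the form known from radial glia and astrocytes. Apoc1, a small apolipoprotein of lipoprotein particles, lies next to Apoe in the rat genome, with 0 other genes of the RefSeq table between them. A change in bulk tissue RNA can come from fewer or more cells of a type or from less or more RNA per cell, which cannot be told apart here.

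Across probe sets, replicate arrays correlated at a median r of 0.947, and no 2 arrays fell under 0.885. The 12 arrays of 6 and 72 h were more like each other (median r 0.954) than like the 18 arrays of 1, 24 and 240 h (0.925). Those 18 arrays were about as like each other (0.927) as they were like the other 12. The sample titles name no such sets, so the sets used below are groupings of times and not a known batch. Kainate was always set against the PBS arrays of its own time. Levels were compared between times within each of these sets, except in 1 F test across all PBS groups. Of the neuron markers, all 13 on the array passed the filter on low signals and none lay at the floor on every array. The same was true of all 9 astrocyte and all 7 oligodendrocyte markers on the array.

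At least 1 probe set passed the test for a kainate effect in 3 of the 6 genes at 24 h and in 1 gene at 6 h. None passed at 1, 72 or 240 h, which does not show that nothing changed then. Fabp7 and Apod rose at 24 h, 1 of 3 Lpl probe sets fell at 24 h, and Apoc1 fell at 6 h, while neither Apoe nor Clu passed the test at any time. At 24 h, 2 of 9 probe sets were called higher and 1 lower at an adjusted p under 0.05 (limma, Benjamini-Hochberg over all tested probe sets). Of all tested probe sets 11.3% were called at that time, 5.03% higher and 6.3% lower. At 6 h, 1 of 9 was called, lower, where 3.93% of all were, 3.24% higher and 0.698% lower. No member was called at 1 h, where 1.09% of all were, at 72 h (0.0476%) or at 240 h (0.0476%). With no adjustment, limma gave a p under 0.05 for 0, 1, 5, 3 and 1 of the 9 at the 5 times in order. The median log2 change of the 9 probe sets was -0.0021, -0.0052, 0.023, 0.11 and -0.049 at the 5 times in order, and that of all tested probe sets was -0.038, -0.11, -0.047, -0.036 and 0.027. The 3 arrays per group limit the precision of every value given here.

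**Figure D1:**
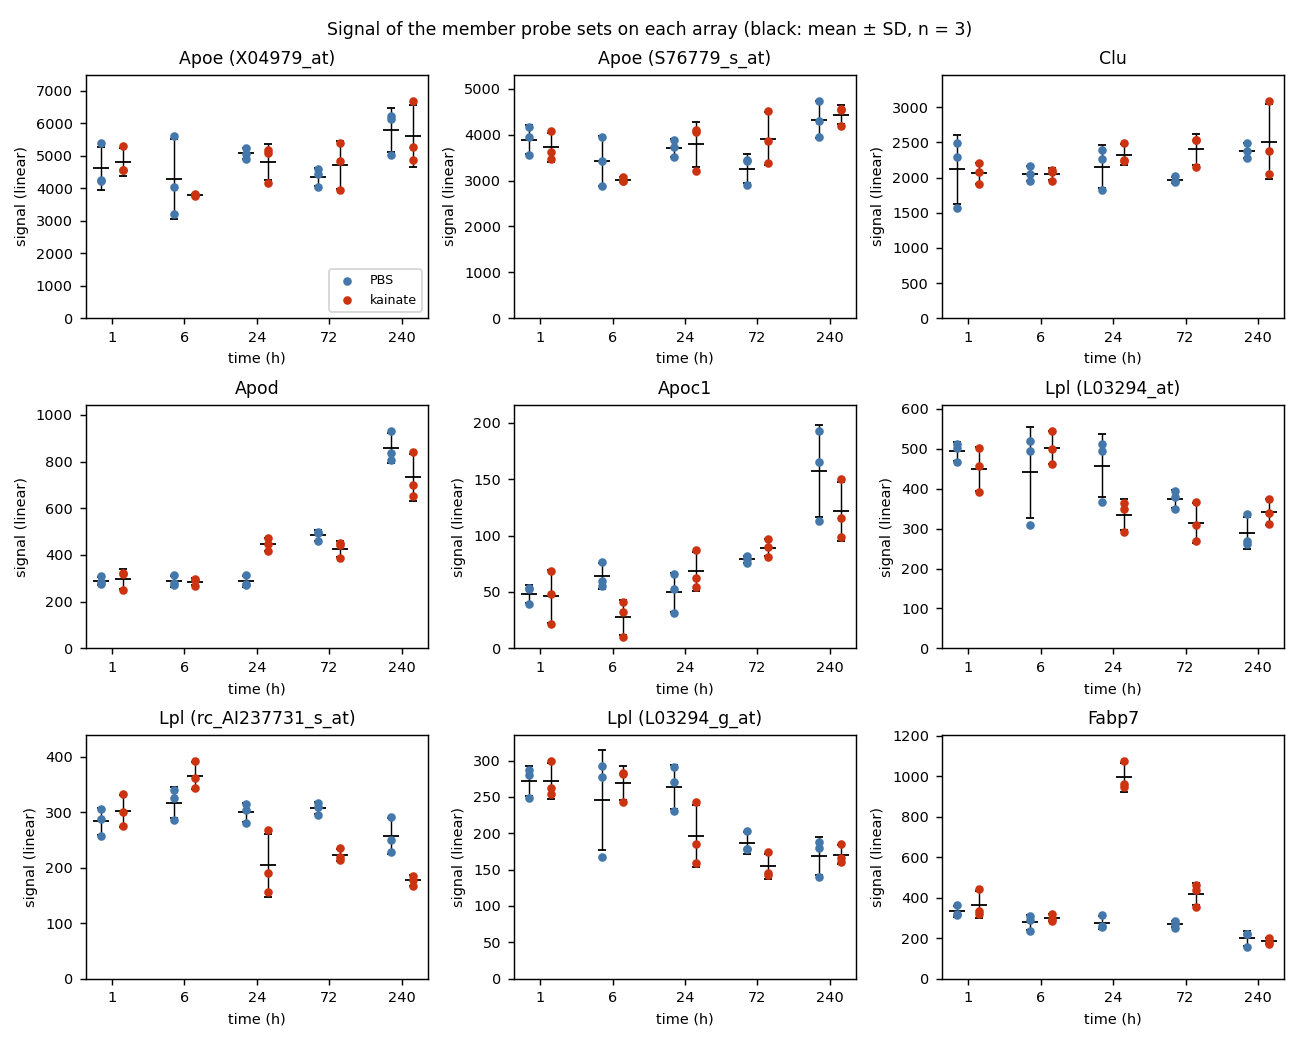
Signal of each of the 9 probe sets on each of the 30 arrays (linear scale, scaled to a common trimmed mean) against time in hours, with PBS arrays in blue, kainate arrays in red and the mean ± SD of 3 arrays in black. The 3 kainate arrays of Fabp7 at 24 h (945 to 1075) stand above every other array of that probe set, and Apod climbs to its highest levels at 240 h in both treatments.

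The kainate effect itself differed between the 5 times for 3 of 9 probe sets by the F test of limma, where 6.62% of all tested probe sets passed. These were Fabp7 (adjusted p = 9.31e-07), Apod (adjusted p = 0.00706) and the Lpl probe set rc_AI237731_s_at (adjusted p = 0.0197). Between 6 and 24 h the effect became higher for Fabp7, Apod and Apoc1 and lower for that Lpl probe set, 4 of 9 against 5.24% of all (2.17% higher and 3.06% lower). From 24 to 72 h it became lower for Fabp7 and Apod, 2 of 9 against 0.746% of all, 0.65% of all being lower. Both differences use the 24 h arrays and are not independent of each other.

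**Figure D2:**
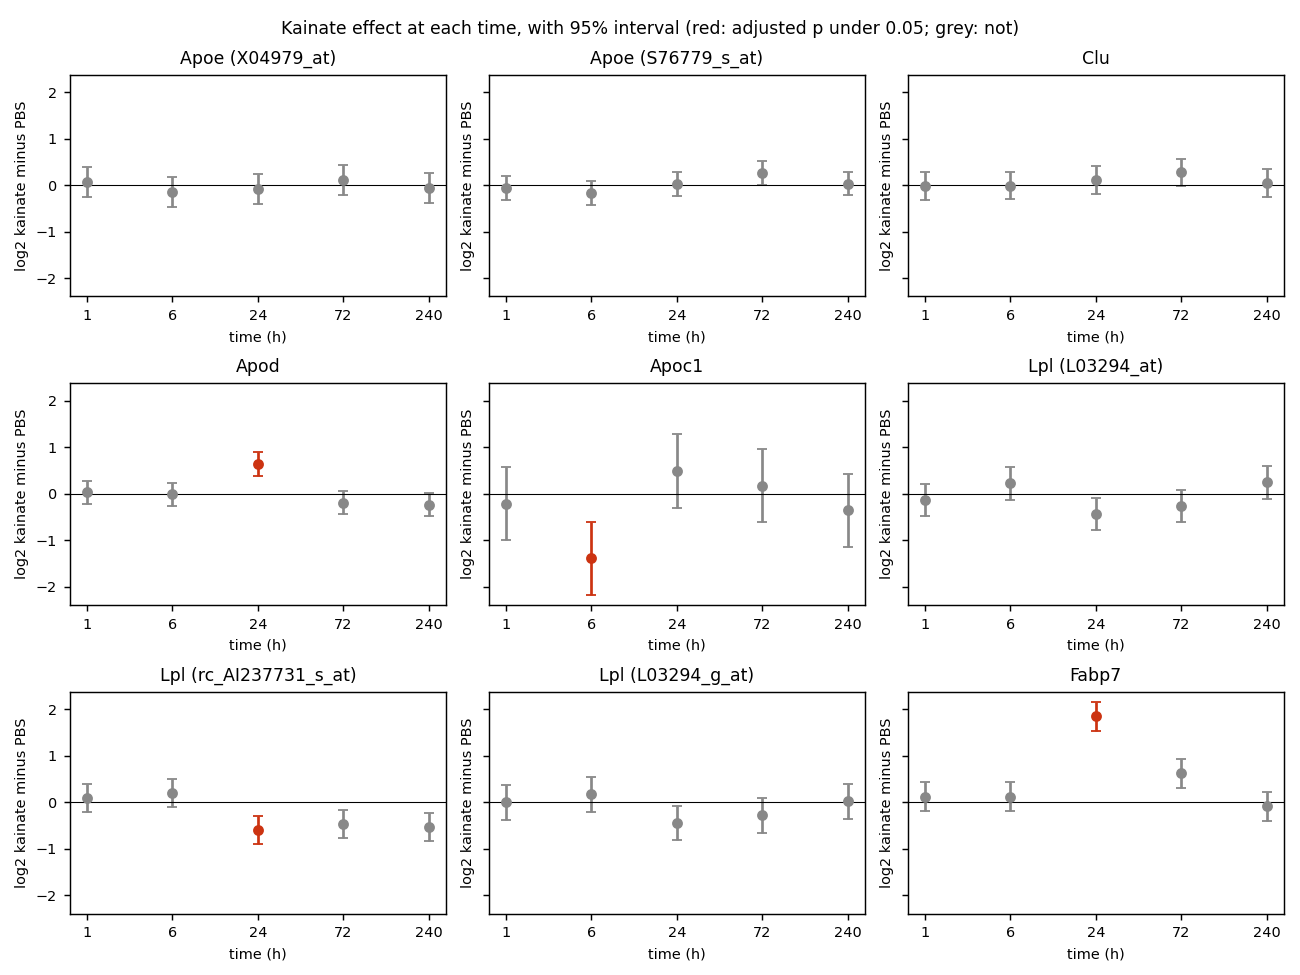
Log2 difference of kainate minus PBS for each of the 9 probe sets at each time in hours, as points with their 95% interval. The calls, in red, are Apoc1 at 6 h and Fabp7, Apod and the Lpl probe set rc_AI237731_s_at at 24 h; the intervals of both Apoe probe sets and of Clu at 24 h include 0.

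The promoters of the 2 genes that rose at 24 h are printed here so that their sequences can be set side by side. The RefSeq promoter table (build GRCr8) held 4 of the 6 genes, Apoe, Apoc1, Apod and Fabp7. Each window runs from 250 bases before the start used in that table to 50 after it, 300 bases in all, and is written in the direction of the gene. The Apod window lies at chr11:82935970-82936269 on the + strand, and the Fabp7 window at chr20:37669356-37669655 on the + strand. The RefSeq gene table of the same build begins the span of Fabp7 at base 37667125, so the Fabp7 window lies inside that span and not upstream of it, whereas the Apod window holds the first base of its gene's span, 82936216. Capitals mark the TATA box letters TATAAA in Apod and the nuclear receptor letters AGGTCA, found on the opposite strand, in Fabp7.
Apod: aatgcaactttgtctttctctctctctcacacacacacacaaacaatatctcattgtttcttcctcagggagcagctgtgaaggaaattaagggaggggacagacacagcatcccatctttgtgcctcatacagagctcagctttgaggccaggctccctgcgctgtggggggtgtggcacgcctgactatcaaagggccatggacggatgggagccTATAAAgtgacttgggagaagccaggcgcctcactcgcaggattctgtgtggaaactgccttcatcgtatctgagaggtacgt
Fabp7: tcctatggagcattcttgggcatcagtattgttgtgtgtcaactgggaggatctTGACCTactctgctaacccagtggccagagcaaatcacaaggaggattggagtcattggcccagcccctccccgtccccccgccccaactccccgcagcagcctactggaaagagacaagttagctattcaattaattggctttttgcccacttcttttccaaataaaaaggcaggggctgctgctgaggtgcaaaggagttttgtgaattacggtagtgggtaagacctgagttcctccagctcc
The TATA box letters began at position -33 from the start used for Apod, and 14.2% of all 33469 promoter windows held them on either strand. The letters AGGTCA began at position -196 of Fabp7 and were held by 16.2% of windows. Fabp7 also held 1 GC box (GGGCGG, in 33.1% of windows), and each window held 1 E-box (CANNTG, in 72.1%). The letters searched for AP-1 (TGANTCA, in 7.33% of windows), STAT factors (TTCNNNGAA, in 8.87%) and RBPJ (TGGGAA, in 25.7%) were found in neither. All motifs were searched on both strands, and overlaps were allowed. The windows of the 2 genes thus shared the E-box letters alone among the 7 motifs.

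Apoe, the main lipoprotein coat protein of the brain, did not pass the test at any time in either of its probe sets. At 24 h its probe set X04979_at read 5241, 4914 and 5057 on the PBS arrays and 4169, 5082 and 5164 on the kainate arrays, so the groups overlapped. The log2 difference was -0.084 ± 0.16 (SE, n = 3 per group), and the 95% interval of the ratio of kainate to PBS ran from 0.754 to 1.18 (limma adjusted p = 0.784). The second probe set, S76779_s_at, read 3507, 3887 and 3737 in PBS and 3215, 4095 and 4059 after kainate, again with overlap. Its ratio at 24 h had an interval from 0.852 to 1.21, so a change of the size seen for Fabp7 lay outside the intervals of both probe sets. At 72 h S76779_s_at read 2896, 3423 and 3455 in PBS and 3375, 4515 and 3868 after kainate, a log2 difference of 0.26 that missed the threshold after adjustment (unadjusted p = 0.0448, limma adjusted p = 0.777). At 1, 6 and 240 h no difference passed in either probe set, and their groups overlapped at all 5 times. The widest spread was at 6 h in PBS, where X04979_at read 3201, 5618 and 4028, while the kainate arrays of that time read 3755, 3795 and 3810. Over the 30 arrays, as deviations from the PBS mean of the same time, the 2 Apoe probe sets correlated at r = 0.54.

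Clu encodes clusterin, or apolipoprotein J, a secreted chaperone and lipid carrier. Its signal at 24 h was 2260, 2395 and 1818 in PBS and 2229, 2494 and 2256 after kainate. These groups overlapped, with a log2 difference of 0.12 ± 0.14 (SE) and an interval of the ratio from 0.884 to 1.33 (limma adjusted p = 0.651). At 72 h the PBS arrays read 2022, 1943 and 1948 and the kainate arrays 2150, 2533 and 2530. All kainate arrays were then above all PBS arrays, but the log2 difference of 0.28 did not pass (limma adjusted p = 0.777). At 240 h the kainate arrays were spread from 2048 to 3095 around PBS arrays of 2276 to 2497. Without PBS replicate 3 the difference at 24 h was -0.00203, so its sign rests on that array.

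Apod is a lipocalin that binds arachidonic acid and sterols and is made by glia. At 24 h its signal was 314, 274 and 273 in PBS and 446, 418 and 475 after kainate, with every kainate array above every PBS array. It rose 1.56-fold (95% interval 1.31 to 1.85, log2 change 0.64 ± 0.12 SE, n = 3 per group, limma adjusted p = 0.00099). At 1 h the groups overlapped, at 274 to 309 and 249 to 323 as the lowest and highest arrays of PBS and kainate, and at 6 h they overlapped at 269 to 314 and 267 to 297. At 72 h the order was turned, with 458, 495 and 498 in PBS and 386, 441 and 451 after kainate, a log2 difference of -0.19 that did not pass (limma adjusted p = 0.874). At 240 h PBS read 932, 838 and 805 and kainate 699, 654 and 843, which overlapped (log2 difference -0.24, limma adjusted p = 0.446). The effect was higher at 24 h than at 6 h by 0.65 (limma adjusted p = 0.0244) and lower at 72 h than at 24 h (-0.82, limma adjusted p = 0.0123). The kainate effect on Apod was thus called at 1 of the 5 times, and its mean over the 5 times, 0.047, did not pass (limma adjusted p = 0.681).

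Apoc1 fell at 6 h, and its call rests on low signals. At 6 h it read 55.0, 76.8 and 59.7 in PBS and 10.3, 40.7 and 31.8 after kainate. The groups did not overlap, and the lowest kainate array lay below the floor of 10.95 that was set on all signals. With that array at the floor, Apoc1 fell by 1.38 ± 0.38 on the log2 scale (SE, n = 3 per group, limma adjusted p = 0.0344). The call was lost without that array, kainate replicate 1, where the difference was -0.81 (limma adjusted p = 0.322), and also without PBS replicate 2 (adjusted p = 0.177) or PBS replicate 3 (adjusted p = 0.0875). At 24 h PBS read 52.9, 31.3 and 65.5 and kainate 87.6, 54.6 and 62.8, which overlapped, and the groups also overlapped at 1, 72 and 240 h. Of the marker lists at 6 h, 3 of 7 reactive astrocyte genes and 2 of 10 microglia and macrophage genes rose, with sums after kainate of 1411 to 1683 against 983 to 1109 and of 1443 to 1584 against 1296 to 1463. Of 4 progenitor and radial glia genes 1 fell, Hes5 (2.04-fold lower), with sums of 451 to 592 against 570 to 599. No gene of the other lists was called at 6 h. The neuron sums were 10584 to 10842 after kainate against 9629 to 9911, and the oligodendrocyte sums 7034 to 7672 against 7814 to 7901. The sums of the astrocyte, choroid plexus, and endothelial and blood lists overlapped. The part of these markers in the Apoc1 result was not tested. The effect at 24 h was above that at 6 h by 1.87 (limma adjusted p = 0.0411), but the F test over all 5 times did not pass (limma adjusted p = 0.148).

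Lpl, lipoprotein lipase, frees fatty acids from triglycerides in lipoproteins and was measured by 3 probe sets. At 24 h the probe set rc_AI237731_s_at read 314, 281 and 305 in PBS and 156, 191 and 267 after kainate. All kainate arrays were below all PBS arrays, and the signal fell by 0.59 ± 0.15 on the log2 scale (SE, n = 3 per group, limma adjusted p = 0.0103), a ratio of kainate to PBS of 0.667 with a 95% interval from 0.541 to 0.821. Without kainate replicate 1 of 24 h the difference was -0.41 and missed the threshold (limma adjusted p = 0.083), and a fit to the 6 arrays of 24 h alone also missed it (adjusted p = 0.134). The other 2 probe sets were lower by 0.44 each without passing. L03294_at read 511, 494 and 367 in PBS and 350, 292 and 364 after kainate, with no overlap (log2 difference -0.44, limma adjusted p = 0.091). L03294_g_at read 291, 270 and 231 in PBS and 186, 159 and 244 after kainate and overlapped (log2 difference -0.44, limma adjusted p = 0.111). Without PBS replicate 3 of 24 h the first of these passed, at -0.59 (limma adjusted p = 0.0474). It also passed without PBS replicate 2 of 6 h, at -0.44 (limma adjusted p = 0.0463).

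All 3 Lpl probe sets had lower means after kainate at 72 h, none passing the test, and at 240 h their differences had unlike signs. At 72 h rc_AI237731_s_at read 317, 310 and 295 in PBS and 215, 235 and 220 after kainate, with no overlap (log2 difference -0.46, limma adjusted p = 0.37). L03294_g_at was apart too, at 204, 179 and 178 in PBS and 143, 146 and 174 after kainate (log2 difference -0.28, limma adjusted p = 0.869), and L03294_at overlapped (-0.26, limma adjusted p = 0.874). At 240 h rc_AI237731_s_at read 292, 250 and 228 in PBS and 167, 178 and 186 after kainate, again with no overlap (log2 difference -0.53, limma adjusted p = 0.153). For this probe set neither time passed over all tested probe sets. The mean effect over the 5 times did, at -0.26 (limma adjusted p = 0.0212), where 4.41% of all probe sets were called. That mean takes in the called effect at 24 h (-0.59) and the effects at 1 h (0.094) and 6 h (0.21). It is therefore no separate test of 72 and 240 h. At 240 h L03294_at read 261, 269 and 337 in PBS and 375, 339 and 311 after kainate, which overlapped, and its difference had the opposite sign (log2 0.25, limma adjusted p = 0.584), while L03294_g_at lay near 0 (0.021, limma adjusted p = 0.98). Before 24 h, rc_AI237731_s_at was not lower after kainate: at 6 h it read 325, 340 and 286 in PBS and 362, 344 and 392 after kainate, without overlap (log2 difference 0.21, limma adjusted p = 0.535). As deviations from the PBS mean of the same time over 30 arrays, L03294_at and L03294_g_at correlated at r = 0.85, and rc_AI237731_s_at correlated with them at r = 0.21 and r = 0.51. The values for Lpl are therefore given per probe set and not as 1 gene.

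Fabp7, the brain fatty acid binding protein, had the largest kainate effect among the 9 probe sets. At 24 h its signal was 258, 314 and 256 in PBS and 945, 1075 and 963 after kainate. The groups were far apart, and no other array of the 30 read above 460. Fabp7 rose 3.61-fold (95% interval 2.91 to 4.49, log2 change 1.85 ± 0.15 SE, n = 3 per group, limma adjusted p = 1.26e-09). At 1 h the arrays read 365, 320 and 315 in PBS and 440, 335 and 321 after kainate, and at 6 h they read 292, 234 and 308 in PBS and 286, 297 and 319 after kainate. Both times showed overlap and log2 differences of 0.12. At 72 h the signal was 283, 252 and 272 in PBS and 460, 354 and 435 after kainate. Every kainate array was again above every PBS array, by 1.54-fold, but this did not pass over all tested probe sets (limma adjusted p = 0.129), where array quality weights gave an adjusted p of 0.00156. By 240 h the arrays overlapped, at 154, 218 and 221 in PBS and 169, 183 and 201 after kainate (log2 difference -0.086, limma adjusted p = 0.875). From 6 to 24 h the effect increased by 1.73 (limma adjusted p = 4.07e-06), and from 24 to 72 h it fell by 1.23 (limma adjusted p = 0.00168). The mean effect over the 5 times was 0.53 (limma adjusted p = 5.63e-06). As deviations from the PBS mean of the same time, Fabp7 and Apod correlated at r = 0.71 over the 30 arrays, which share the 3 kainate arrays of 24 h where both are high.

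Groups that do not overlap were common among all probe sets, so that separation by itself says little here. Of the 9 probe sets, 2 were apart at 6 h, where 27.8% of all tested probe sets were, and 4 were apart at 24 h (28.2% of all). Another 5 were apart at 72 h (22.3%), 1 at 240 h (14.6%), and 0 of 9 at 1 h (10.4%). At 72 h these 5 were Fabp7 and Clu, higher after kainate, and Apod and 2 of the Lpl probe sets, lower.

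Markers of other cell types moved at 24 h too, and their part in the members' results was not tested. Of 7 reactive astrocyte genes tested, 5 rose and none fell, among them the intermediate filament Vim (5.85-fold) and the annexin partner S100a10 (5.41-fold), and their summed signal was 2945 to 3397 after kainate against 967 to 979 in PBS. Of 10 microglia and macrophage genes, 5 rose and none fell, led by the galectin Lgals3 (21.1-fold) and osteopontin, Spp1 (8.35-fold), with sums of 2085 to 2499 against 1124 to 1294. Of 9 general astrocyte markers, none rose and 3 fell, with Slc4a4, a bicarbonate transporter, 2.22-fold and Aldoc, a glycolytic enzyme, 1.78-fold lower, and the sum was 6317 to 7132 against 7936 to 8288. Among 13 neuron markers 4 fell, including Camk2a (3.72-fold lower), and the sum was 7275 to 8271 against 9020 to 9846. Of 4 progenitor and radial glia genes, Vim rose and the Notch target Hes5 fell 2.02-fold, with sums of 1316 to 1583 against 549 to 600. The median log2 change of these 4 was 0.23, and Vim is also on the reactive astrocyte list. By limma 0 of 7 oligodendrocyte genes passed, with 2 at an unadjusted p under 0.05, and the sums were 7072 to 7682 against 8249 to 8393. Of 4 choroid plexus genes tested Igfbp2 rose (2.37-fold), with sums of 3090 to 6087 against 1308 to 3721, while the choroid plexus markers Aqp1 and Kcnj13 did not pass the filter on low signals. Of 8 endothelial and blood genes 2 fell, Slco1a4 and Slc4a1, with sums of 2778 to 3850 against 3284 to 4163. No marker lay at the floor on every array, and of the lists' genes on the array Lcn2, Itgam and Csf1r did not pass the filter.

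Other genes of lipoprotein uptake, sterol transport and fatty acid handling changed in small numbers. The list held 71 genes, of which 50 were on the array and 36 passed the filter. At 24 h, 2 rose and 1 fell, where 11.3% of all tested probe sets were called, and at 6 h, 3 rose and none fell, where 3.93% were. With quantile normalization 4 were called at 24 h, and with the mean of a gene's probe sets 2 were called at 6 h. Of 3 probe sets of the lysosomal lipase Lipa, 1 was called higher at 24 h, but not the brightest, which stood for the gene (log2 difference 0.25, limma adjusted p = 0.23). At 1, 72 and 240 h limma called 0 of 36, with 0, 1 and 2 genes at an unadjusted p under 0.05. The median log2 change of the 36 was -0.041, -0.14, -0.12, -0.018 and 0.016 at the 5 times in order, beside the medians of all tested probe sets given above.

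**Figure D3:**
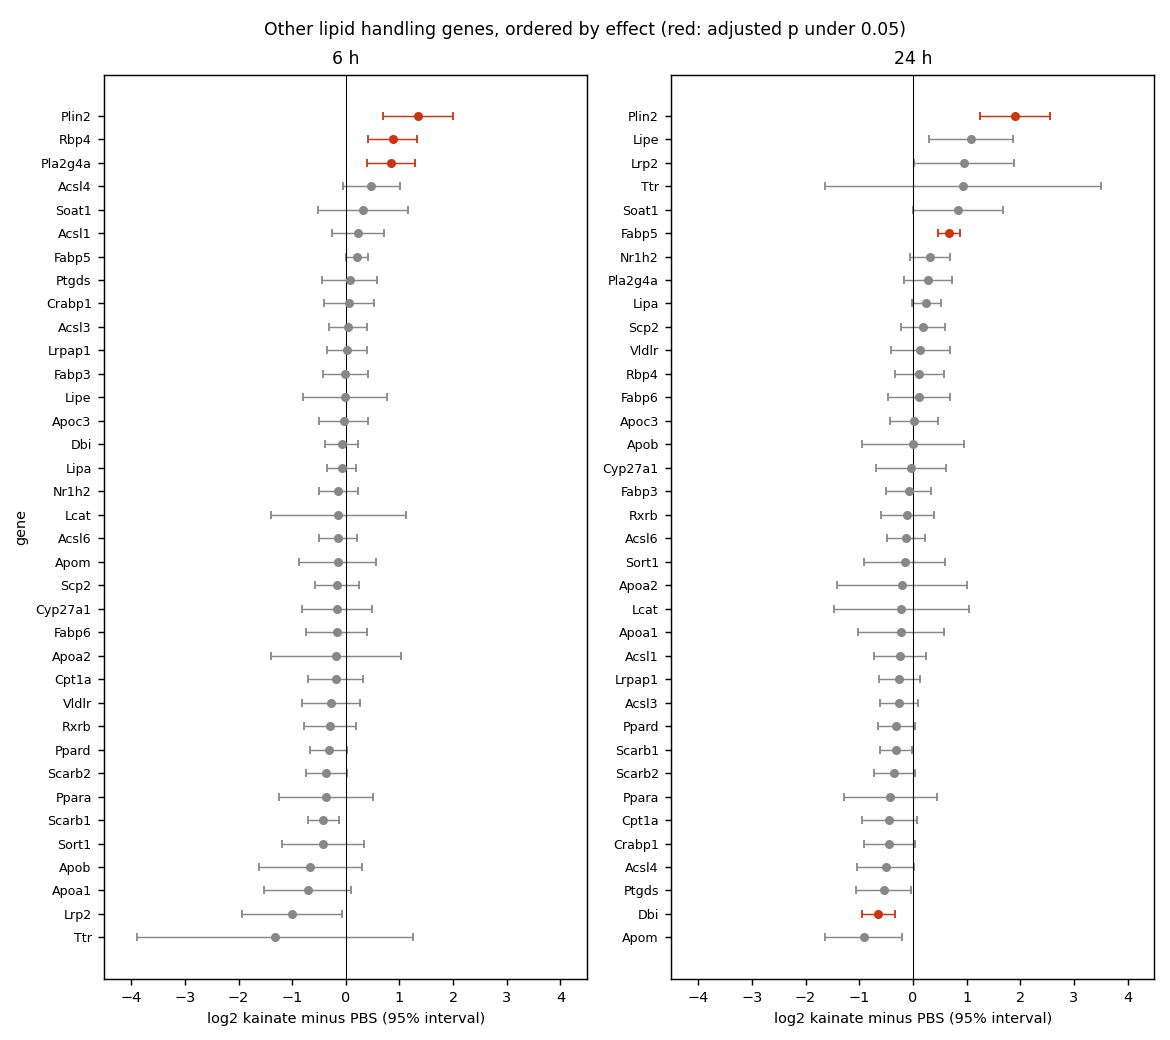
Log2 difference of kainate minus PBS at 6 h (left) and 24 h (right) for the 36 tested genes of the lipid handling list, as points with 95% intervals and ordered by size within each panel. Red marks the calls, 3 at 6 h (Plin2, Rbp4 and Pla2g4a) and 3 at 24 h (Plin2 and Fabp5 to the right of 0 and Dbi to the left).

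Plin2, a coat protein of lipid droplets, rose at both times. Its signal at 24 h was 63.2, 23.0 and 29.6 in PBS and 130, 143 and 121 after kainate, a 3.75-fold rise with no overlap (limma adjusted p = 0.000227). At 6 h it read 20.5, 27.9 and 25.6 in PBS and 62.9, 55.6 and 69.0 after kainate, a 2.55-fold rise (limma adjusted p = 0.00928). At 72 h the Plin2 signal was 17.7 to 22.5 after kainate and 22.7 to 32.1 in PBS, a difference that was not called. Fabp5, another fatty acid binding protein and thus a relative of Fabp7, read 1118, 1330 and 1259 in PBS and 1826, 2076 and 1999 after kainate at 24 h. It rose 1.59-fold with no overlap (limma adjusted p = 6.19e-05), and at 6 h the difference was 0.21 on the log2 scale and did not pass (limma adjusted p = 0.333). The muscle and heart form Fabp3 did not pass at 24 h (log2 difference -0.075, limma adjusted p = 0.861), and neither did Fabp6 (0.12, limma adjusted p = 0.838). Of the 4 Fabp genes tested, members and list together, Fabp7 and Fabp5 thus rose at 24 h and 2 were not called.

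Dbi, the acyl-CoA binding protein, fell at 24 h, from 795, 770 and 718 in PBS to 439, 589 and 447 after kainate, or 1.56-fold (limma adjusted p = 0.00566). Rbp4, the plasma retinol carrier, rose 1.83-fold at 6 h, from 38.6, 41.2 and 29.7 to 55.5, 77.8 and 67.3 (limma adjusted p = 0.0192), in 1 of its 2 probe sets. Pla2g4a, the phospholipase that frees arachidonic acid, rose 1.79-fold at 6 h, from 56.8, 41.6 and 53.3 to 107, 87.3 and 77.2 (limma adjusted p = 0.0239). None of the receptors on the list that were tested, such as Vldlr, Scarb1, Sort1 and Lrp2, passed at 6 or 24 h.

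Levels of several members also differed between times in rats that had received PBS, which bears on how a kainate level is read against time. The F test of limma called 5 of 9 probe sets across the 5 PBS groups, where 16.9% of all were called. This test spans both sets of arrays, so differences between the sets enter its counts. The 5 were Apod, Apoc1, Fabp7 and the Lpl probe sets L03294_at and L03294_g_at. Within the 1, 24 and 240 h arrays, PBS at 240 h against PBS at 1 h gave 2 members higher and 3 lower, against 5.6% of all probe sets called, 2.51% higher and 3.09% lower. Time after injection, the age of the rats and array handling cannot be told apart in this comparison.

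Apod had the clearest change with time. Its PBS means were 289 ± 18.4 (SD, n = 3) at 1 h, 287 ± 23.5 at 24 h and 858 ± 65.8 at 240 h, and 288 ± 23.4 at 6 h and 484 ± 22.2 at 72 h in the other set of arrays. In PBS rats Apod was higher by 1.57 on the log2 scale at 240 h than at 1 h (limma adjusted p = 2.94e-09), and by 0.75 at 72 h than at 6 h (limma adjusted p = 0.00314), where 0.127% of all probe sets were called. In kainate rats the same differences were 1.30 (limma adjusted p = 1.71e-08) and 0.58 (limma adjusted p = 0.00257), where 7.38% and 6.7% of all probe sets were called. The 24 h rise of Apod after kainate, to 446 ± 28.5, therefore stayed below the PBS level of 240 h. Levels at 1 and 24 h in PBS did not differ beyond their spread (log2 difference -0.011, limma adjusted p = 0.995), in a comparison that called 0.0793% of all probe sets.

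Apoc1 was also higher at 240 h than at 1 h. The PBS means were 48.5 ± 8.09 (SD, n = 3) at 1 h, 49.9 ± 17.3 at 24 h and 157 ± 40.7 at 240 h, a log2 difference of 1.67 between 240 and 1 h (limma adjusted p = 0.00862). In kainate rats the difference was 1.53 (limma adjusted p = 0.0129). Between 6 and 72 h Apoc1 rose by 1.88 in kainate rats (limma adjusted p = 0.00166), where the low 6 h group is the base, and was higher by 0.32 in PBS rats without passing (limma adjusted p = 1). The PBS means of that set were 63.9 ± 11.5 at 6 h and 78.9 ± 2.84 at 72 h, and its kainate means were 27.6 ± 15.6 and 89.3 ± 7.74.

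Fabp7 and Lpl went the other way. The PBS mean of Fabp7 was 333 ± 27.7 (SD, n = 3) at 1 h, 276 ± 33.0 at 24 h and 198 ± 38.1 at 240 h, and it fell by 0.77 on the log2 scale between 1 and 240 h (limma adjusted p = 0.00242). The fall was 0.97 in kainate rats, written as a difference of -0.97 (limma adjusted p = 7.97e-05). In PBS rats the Lpl probe set L03294_at was lower at 240 h than at 1 h by a log2 difference of -0.78 (limma adjusted p = 0.00574) and L03294_g_at by -0.70 (limma adjusted p = 0.0204). In kainate rats L03294_at differed by -0.40 without passing (limma adjusted p = 0.168), and L03294_g_at was lower by -0.67 (limma adjusted p = 0.0207). The probe set rc_AI237731_s_at differed by -0.15 in PBS rats without passing (limma adjusted p = 0.623), whereas in kainate rats it was lower by -0.77 (limma adjusted p = 0.000972). The difference between treatments in these changes with time was not tested on its own.

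**Figure D4:**
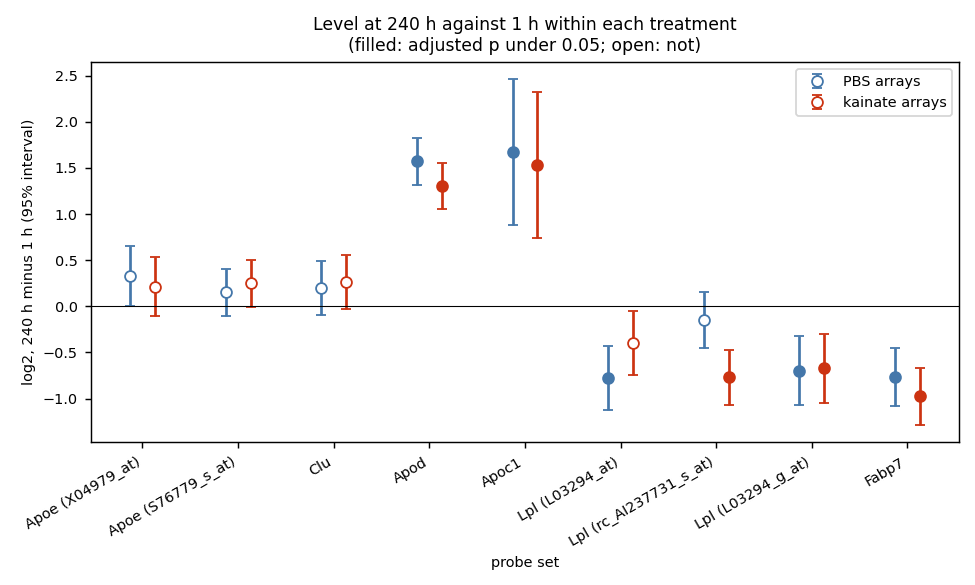
Log2 difference of the 240 h arrays minus the 1 h arrays for each of the 9 probe sets, in PBS rats (blue) and kainate rats (red), with 95% intervals and filled points at an adjusted p under 0.05. Apod (1.57 in PBS and 1.30 in kainate) and Apoc1 lie above 0 in both treatments, Fabp7 lies below 0 in both, and the Apoe and Clu points are open.

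Markers of other cell types moved over the same interval, and their part in the members' changes with time was not tested. In PBS rats 5 of 7 oligodendrocyte genes were higher at 240 h than at 1 h, among them the myelin genes Mog (2.82-fold) and Mobp (2.70-fold). The summed signal of the 7 was 11559 to 13162 against 6643 to 8506. In kainate rats 3 of these 7 oligodendrocyte genes were higher. Of 4 progenitor and radial glia genes in PBS rats, 2 were lower at 240 h, Vim and Top2a, with sums of 339 to 378 against 564 to 690, beside the fall of Fabp7. In kainate rats limma called 0 of these 4, with 1 at an unadjusted p under 0.05 and sums of 413 to 443 against 417 to 528. In PBS rats 2 of 8 endothelial and blood genes were higher (sums of 4569 to 5538 against 2461 to 3487), as were 1 of 10 microglia and macrophage genes (1751 to 2050 against 1160 to 1313) and 1 of 9 astrocyte genes (8207 to 9921 against 7185 to 7991). Of 7 reactive astrocyte genes 1 was lower, again Vim (736 to 747 against 848 to 995), and of 13 neuron markers 1 was higher and 1 lower. Of the 36 tested genes of the lipid handling list, 2 were higher and 5 lower in PBS rats at 240 h. Of all tested probe sets 2.51% were higher and 3.09% lower. Ptgds, a prostaglandin synthase and lipocalin like Apod, was higher by 1.18, and Acsl3, an acyl-CoA synthetase, by 0.65. The lower ones included Apom (-1.52), a lipocalin of high density lipoprotein, Crabp1 (-1.49), a retinoic acid carrier, and Fabp5 (-0.90). In kainate rats Ptgds (1.52), Crabp1 (-1.28) and Fabp5 (-0.90) were called in the same direction. There Acsl3 (0.29, limma adjusted p = 0.338) did not pass, and Apom had the opposite sign without passing (0.45, limma adjusted p = 0.48).

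The genes whose deviations from the PBS mean of the same time were most like those of a member over the 30 arrays are given as a description, and all share arrays with it. For Fabp7 they were S100a4 (r = 0.91), Cd63 (0.89) and RT1-Da (0.88) among 3701 genes compared. S100a4, a calcium-binding protein, was higher after kainate at 24 h by 2.92 on the log2 scale, Cd63, a membrane protein of late endosomes, by 1.66, and RT1-Da, an antigen-presenting class II chain, by 2.13. For Apod they were Rps6 (0.88), Igfbp2 (0.83) and Cd63 (0.82). Cd63 stood on both lists. Apoe was nearest to Ywhah (0.85), Cst3 (0.83) and Tuba1b (0.76), none of which passed at any of the 5 times. Clu was nearest to Aif1 (0.78), a microglial marker, Eif4h (0.72) and Gcn1 (0.69), and none of these was called at any of the 5 times either. The nearest to Apoc1 were Camk1 (0.80), Csnk2a1 (0.78) and Ubxn1 (0.77), and to Lpl (L03294_at) Thpol1 (0.71), Mapk6 (0.69) and Thra (0.69).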

How the data were processed

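Total RNA of rat hippocampus was measured on 30 Affymetrix arrays, and groups follow the labels. The table the authors deposited gives a linear signal intensity for each probe set on each array, and the sources used here do not say how it was computed. All arrays came with trimmed means (2% left out at each end) of 150.0, so they had been scaled before deposit.

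Arrays were scaled to a common trimmed mean, signals under 10.95 (the 20th percentile; log2 3.45) were set to it, and log2 was taken. A probe set was tested when above 35.2 (the 40th percentile) on at least 3 arrays, leaving 6303. The 59 array controls were left out. Signals printed per array are before the floor. Gene names came from the platform annotation: of 8740 probe sets, 7006 had 1 gene, 308 several and 1426 none, and 6985 were matched to current gene identifiers. For lists, the probe set with the highest mean stood for a gene.

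limma 3.58.1 in R 4.3.3 fitted a mean per group over all 30 arrays, with empirical Bayes moderation and an intensity trend (residual degrees of freedom 20, prior 7.26) and Benjamini-Hochberg adjustment over all tested probe sets at 0.05. On simulated data of 6303 probe sets for the 24 h comparison, log2 changes of 1 were recovered at 51.0% and of 2 at 90.0%, and 7.24% of calls were false. The simulated noise was independent between probe sets, and fewer probe sets were changed than were called at 24 h. These shares may therefore not hold for the real arrays. Fold changes are powers of 2 of the log2 difference. Tables were made in Python 3.11.15 with pandas 2.3.3, and figures with matplotlib 3.10.9.

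The members and lists were chosen with earlier results of these data known. Members are all named; from the lipid handling list, the 3 largest passing changes in each direction at each time; from each marker list at most 2 that passed; and the 3 genes most like each member. Uncalled list genes, comparisons of times within a treatment and the motifs were chosen after their values were seen. Same-numbered kainate and PBS arrays of a time deviated together only weakly, with a median correlation of 0.037 and 3 of 15 pairs over 0.1. Of the 15 kainate arrays, 7 correlated best with the PBS array of their own number. No block was used in the main fit. Alternatives were quantile normalization, other floors, no filter, fewer arrays in the fit, a replicate block, array weights, no trend and each array left out.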

Additional observations from a re-analysis of the deposited data

Results flagged for a closer look

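The kainate effect differed between times, by a test of the difference itself, for 3 of 9 member probe sets, where 6.62% of all tested probe sets passed. The F test of limma over the 5 times gave an adjusted p of 9.31e-07 for Fabp7, 0.00706 for Apod and 0.0197 for the Lpl probe set rc_AI237731_s_at. On the lipid handling list it was read only for genes already called at 6 or 24 h, a choice that favours a difference between times. Of these, Fabp5 (adjusted p = 0.000598) and Plin2 (0.00291) passed by the same F test. Rbp4 (0.143), Dbi (0.226) and Pla2g4a (0.191) did not. Between 6 and 24 h the log2 effect increased by 1.73 for Fabp7, by 0.65 for Apod and by 1.87 for Apoc1, and it changed by -0.79 for the Lpl probe set rc_AI237731_s_at. Between 24 and 72 h it changed by -1.23 for Fabp7 and by -0.82 for Apod. The 6 h and 24 h arrays lie in different sets of arrays, as do those of 24 and 72 h, and each effect was taken within its own time.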

How the results depend on the processing

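The rises of Fabp7 and Apod at 24 h passed under every alternative run, with log2 changes of 1.76 to 1.85 and 0.61 to 0.66, and 1.80 to 1.95 and 0.59 to 0.71 with each array left out. The call of Apoc1 at 6 h was lost with quantile normalization (-1.28, limma adjusted p = 0.0663), with no filter (-1.38, adjusted p = 0.0755) and in a fit to only the 6 arrays of that time (-1.38, adjusted p = 0.13), so that the count at 6 h was then 0. With each array left out its change ran from -1.76 to -0.81 and the count at 6 h from 0 to 1, while the count at 24 h ran from 2 to 4. The call of the Lpl probe set rc_AI237731_s_at at 24 h (-0.59) was lost in fits to only the 6 arrays of that time (-0.59, adjusted p = 0.134) and to the arrays of 1, 24 and 240 h (-0.59, adjusted p = 0.0556); with each array left out the change ran from -0.80 to -0.41. Array weights called 2 members at 72 h, Fabp7 and this Lpl probe set, and of all tested probe sets 109 higher and 44 lower, against 3 and 0 without them. The causes of these changes were not tested. The replicate block ended 1 call among the members, the F test of this Lpl probe set (adjusted p = 0.0603), and changed no other call; with each array left out that p ran from 0.00141 to 0.05002 and missed the threshold only without PBS replicate 3 of 6 h. Signs turned among uncalled differences near 0: with quantile normalization for Clu at 6 h (0.0062) and the Apoe probe set X04979_at at 240 h (0.00296) and in the mean of times (0.029), and with array weights for Apod at 6 h (0.018), S76779_s_at of Apoe at 24 h (-0.025) and X04979_at at 240 h (0.017). Leaving out 1 array turned the sign of further uncalled log2 differences, whose ranges follow. At 1 h these were Apoe (X04979_at) -0.0068 to 0.18, Clu -0.22 to 0.12, Apod -0.035 to 0.15, Apoc1 -0.58 to 0.26, Lpl (L03294_g_at) -0.073 to 0.045 and Fabp7 -0.020 to 0.21. At 6 h these were Apoe (X04979_at) -0.33 to 0.077, Clu -0.040 to 0.033, Apod -0.060 to 0.051, Lpl (L03294_at) -0.015 to 0.36 and Lpl (L03294_g_at) -0.087 to 0.32. At 24 h these were Apoe (X04979_at) -0.14 to 0.015, Apoe (S76779_s_at) -0.037 to 0.14 and Clu -0.0020 to 0.20. At 240 h these were Apoe (X04979_at) -0.18 to 0.046, Apoe (S76779_s_at) -0.027 to 0.11, Clu -0.11 to 0.19, Lpl (L03294_g_at) -0.11 to 0.10 and Fabp7 -0.26 to 0.0051. For the mean of the 5 times these were Apoe (X04979_at) -0.057 to 0.024 and Apoe (S76779_s_at) -0.0052 to 0.041.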
